A study of Homo sapiens with 4 samples.

Results

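Circular RNAs (circRNAs) that carry exons of deubiquitinase and ubiquitin-conjugating enzyme genes were examined in AGS cells, an established human gastric adenocarcinoma line. Members were all circRNAs whose host gene symbol begins with USP, OTUD, UCHL or UBE2, which gave 168 of 11760 listed circRNAs and 50 of 4410 host genes. Of these, 99 circRNAs of 46 hosts had reads in at least 1 library (58.9%, beside 64.6% of all other circRNAs). The other 69 circRNAs were listed with 0 reads in every library, and no UCHL host was listed. The cells had been transfected with FLAG-DDX5, a tagged form of the RNA helicase DDX5 (DDX5 group, 2 libraries), or with the FLAG-tagged empty vector (NC group, 2 libraries), and both groups otherwise had the same AGS background. After rRNA removal, RNase R, which degrades linear RNA and spares circles, was applied to the RNA, so linear mRNA of the hosts was not measured. The libraries of a group are described as biological replicates, but separate cultures are not stated, and the p-values measure only the spread between these libraries, which may be technical. The overexpression could not be checked in these files, which hold back-splice reads only and list no circRNA of DDX5 itself.

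Ubiquitin is passed from an E1 activating enzyme to an E2 conjugating enzyme and then, mostly with the help of an E3 ligase, to a substrate. Deubiquitinases take it off again, and the USP and OTUD families are both cysteine proteases. A circRNA forms when the end of a downstream exon is joined to the start of an upstream exon, and only reads across that back-splice junction were counted. Such reads say nothing of the amount of the enzyme made from the same gene.

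The 10 back-splice junctions that the results below turn on are shown first, chosen among the named circRNAs after their values had been seen. Each line gives the last 15 bases of the last exon in lower case and the first 15 bases of the first exon in capitals, 5′ to 3′ on the transcript strand, from GENCODE 29 transcripts. Exon numbers are those of the matched transcript, and positions are on GRCh38.
UBE2J2 exons 4 to 5, chr1:1256992-1257310, minus strand: acgtcggacttcacgGTGGCTATTATCATG
UBE2J2 exons 2 to 6, chr1:1256045-1267992, minus strand: cctgaagtcgtggagATGAGCAGCACCAGC
UBE2D2 exons 2 to 5, chr5:139600372-139614966, plus strand: taactatttcaaaagGAATTGAATGATCTG
UBE2G1 exons 3 to 5, chr17:4282798-4296814, minus strand: ttcacttatttcaggTGAAGGTGGTGTTTT
UBE2G1 exons 2 to 5, chr17:4282798-4307123, minus strand: ttcacttatttcaggAACTCAACAAAAATC
USP10 exons 3 to 4, chr16:84740309-84745673, plus strand: ccataaagattgcagCTTCCTCCATACAGT
USP3 exons 2 to 8, chr15:63532647-63563008, plus strand: tatgccaaactttagTGTGCCGGTCCAACA
USP13 exons 18 to 19, chr3:179764002-179765848, plus strand: aggatggatctggaaATTTTGCTGAGCCGC
USP22 exons 2 to 6, chr17:21015752-21028674, minus strand: accgacactgcaaagGCCAAGTCCTGTATC
USP8 exons 4 to 5, chr15:50449400-50459162, plus strand: gacaaaacccaaaagGATTATTTCCATTCA
Both UBE2G1 circRNAs share the lower-case side, the end of exon 5, and differ in the exon they are joined back to. The capitals of the UBE2J2 circRNA of exons 2 to 6 open with the annotated start codon of the gene.

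Member circRNAs made up a small share of the back-splice reads of each library, from 0.771% to 1.00%. Total back-splice reads were 78377 and 60178 in DDX5 and 73173 and 97961 in NC. Levels are given as RPM, the reads scaled to the same back-splice total in each library, where a lone read counted for 10.2 to 16.6 RPM. A count of 0 allowed up to 3 reads, or 30.6 to 49.9 RPM. Members took 0.915% (95% exact binomial interval 0.849% to 0.984%) and 0.776% (0.708% to 0.849%) of the reads in the DDX5 libraries. In the NC libraries they took 1.00% (0.932% to 1.08%) and 0.771% (0.717% to 0.828%), and these intervals cover counting error only. The group means were 0.845% ± 0.098 in DDX5 and 0.887% ± 0.16 in NC (SD, n = 2), and the groups overlapped. DDX5 library 2, the shallowest, had reads on 30 member circRNAs, while the other 3 libraries had reads on 48 to 54. Of 20 gastric and epithelial marker genes 4 were hosts with reads, EPCAM and CTNND1 in every library. TJP1 had no reads in DDX5 library 2, and CDH1 had reads in DDX5 library 1 alone. None of 14 stromal and immune markers was a host with reads. In such bulk RNA, fewer cells that make a circRNA and less of it per cell cannot be told apart.

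USP hosts supplied 59.0% of the 2673 member reads, UBE2 hosts 36.2% and OTUD hosts 4.79%. The USP reads came from 69 circRNAs of 28 hosts, with a median of 42.5 reads per host, and the UBE2 reads from 24 circRNAs of 15 hosts, with a median of 23 reads per host. Summed over all UBE2 hosts, the level was 3164 and 3340 RPM in the DDX5 libraries and 3048 and 3011 RPM in the NC libraries, or 3252 ± 125 and 3030 ± 26.2 RPM (SD, n = 2). Over the 10 of them that code for ubiquitin E2 enzymes, the level was 3075 and 3174 RPM in the DDX5 libraries and 2665 and 2685 RPM in the NC libraries. The DDX5 values lay above the NC values in both sums, with means of 3124 ± 70.0 and 2675 ± 14.1 RPM (SD, n = 2) in the latter. The remaining 5 UBE2 hosts together summed lower in both DDX5 libraries than in both NC libraries. The 29 ubiquitin-specific proteases summed to 5040 and 3689 RPM in DDX5 and 6382 and 4002 RPM in NC, and these groups overlapped. These sums are a description and were not tested.

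The 3 highest member circRNAs all came from E2 genes. UBE2J2, an E2 anchored in the endoplasmic reticulum membrane that serves the degradation of misfolded proteins, gave the highest one. Its circRNA of exons 4 to 5, 242 nt long after splicing, had 31 and 45 reads in DDX5 and 41 and 74 in NC, and ranked 273 of all circRNAs by mean RPM. The groups overlapped at 572 ± 249 and 658 ± 138 RPM (SD, n = 2). UBE2D2 belongs to the E2 family that works with the widest range of E3 ligases. The circRNA of its exons 2 to 5 had 38 and 43 reads in DDX5 and 26 and 46 in NC, or 485 and 715 RPM against 355 and 470 RPM. UBE2G1, an E2 that builds lysine-48 chains with cullin-RING ligases, gave 51 and 29 reads in DDX5 and 34 and 38 in NC from exons 3 to 5. For these circRNAs of UBE2D2 and UBE2G1 both DDX5 libraries lay above both NC libraries in RPM, but only narrowly. The nearest DDX5 and NC values were 485 and 470 RPM for UBE2D2 and 482 and 465 RPM for UBE2G1. A lone read counted for 10.2 to 16.6 RPM, and the order under other scalings was not examined. Their log2 fold changes were 0.41 ± 0.84 and 0.32 ± 0.85 (SE), smaller than their errors.

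**Figure D1:**
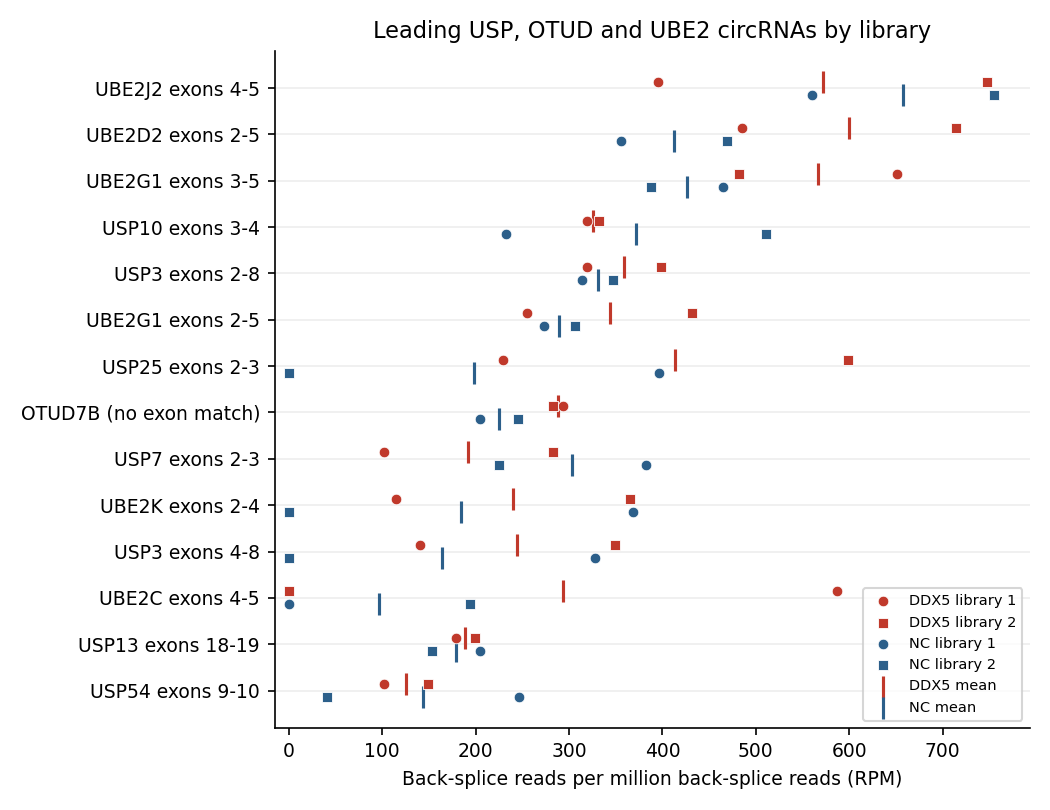
Level of the 12 member circRNAs with the highest mean RPM and of every member circRNA with reads in all 4 libraries (14 circRNAs). The x axis gives RPM, each point is 1 library and each vertical tick a group mean. For UBE2D2, UBE2G1 exons 3-5 and OTUD7B both DDX5 points lie to the right of both NC points, and the NC library 2 points of USP25, UBE2K and USP3 exons 4-8 lie at 0.

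Only 10 member circRNAs had reads in all 4 libraries, 10.1% of those with reads, beside 13.4% of all other circRNAs. They held 39.6% of the member reads, beside 59.2% for the other circRNAs. Among them were 5 USP circRNAs. USP10, a protease known to act on p53, gave 25 and 20 reads in DDX5 and 17 and 50 in NC from exons 3 to 4, at 1102 nt the longest placed member circle with reads. USP3, a histone H2A deubiquitinase, gave 25 and 24 reads in DDX5 and 23 and 34 in NC from exons 2 to 8, with a log2 fold change of 0.00 ± 1.10 (SE). The libraries of each group were close to each other for USP3 and far apart in NC for USP10.

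USP7, which acts on MDM2 and p53, gave 8 and 17 reads in DDX5 and 28 and 22 in NC from exons 2 to 3 of an alternative transcript. USP13 gave 14 and 12 reads in DDX5 and 15 in each NC library from exons 18 to 19. USP54 gave 8 and 9 reads in DDX5 and 18 and 4 in NC from exons 9 to 10. Of these, USP13 was the most even over the libraries, at 189 ± 14.7 RPM in DDX5 and 179 ± 36.7 RPM in NC (SD, n = 2), and in none of the 5 USP circRNAs were the groups apart. The remaining ones were a further UBE2G1 circRNA, described below, and a circRNA of OTUD7B, a deubiquitinase with a preference for lysine-11 chains. That OTUD7B circRNA had 23 and 17 reads in DDX5 and 15 and 24 in NC, and both DDX5 libraries, at 293 and 283 RPM, lay above 205 and 245 RPM. Its span matched no pair of exon edges, so its exons are not given. Over the 10 circRNAs the unadjusted p of edgeR's quasi-likelihood test ran from 0.585 to 0.999.

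Other abundant members were missing from 1 or more libraries. USP25 exons 2 to 3 had 18 and 36 reads in DDX5 and 29 and 0 in NC, UBE2K exons 2 to 4 had 9 and 22 against 27 and 0, and USP3 exons 4 to 8 had 11 and 21 against 24 and 0. All 3 were absent from the deepest library, NC library 2. UBE2C, the E2 of the anaphase-promoting complex, had 46 and 0 reads in DDX5 and 0 and 19 in NC on its only listed circRNA. Among members, a count of at least 10 in a library met a count of 0 in the partner library of the same group in 47 of 108 cases, 43.5%, beside 35.5% for all other circRNAs. Of the member circRNAs seen in a group, 21 of 61 (34.4%) in DDX5 and 24 of 78 (30.8%) in NC were seen in both of its libraries, beside 33.0% in each group for the other circRNAs.

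When each member circRNA was tested between DDX5 and NC, edgeR called none. Of 66 with a total of at least 10 reads, 0 passed an adjusted p of 0.05 in edgeR's quasi-likelihood test, where the calls over all tested circRNAs were 0.0856% in the higher and 0.0% in the lower direction. The count was also 0 at an unadjusted p of 0.05, beside 1.28% higher and 1.37% lower over all circRNAs. DESeq2 gave 0 at the adjusted and 1 at the unadjusted threshold (1.52%), beside 0.0428% and 3.55% of all circRNAs. limma on log2(RPM + 1) gave 0 and 11 (16.7%), beside 0.0% and 9.81%. limma on log2(RPM + 0.1) called 10 at the adjusted threshold (15.2%), beside 8.86%. The 11 are the member circRNAs with reads in both libraries of a group and in neither library of the other. Fitted log2 fold changes were above 0 for 29 members and below 0 for 37, with a median of -0.30 beside -0.27 over all tested circRNAs, of which 43.0% were above 0. Both DDX5 libraries lay above both NC libraries in 8 members, 12.1%, beside 10.8% over all tested circRNAs, and below them in 9, 13.6%, beside 12.5%. The remaining 33 circRNAs with reads had between 2 and 9 and were not tested.

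**Figure D2:**
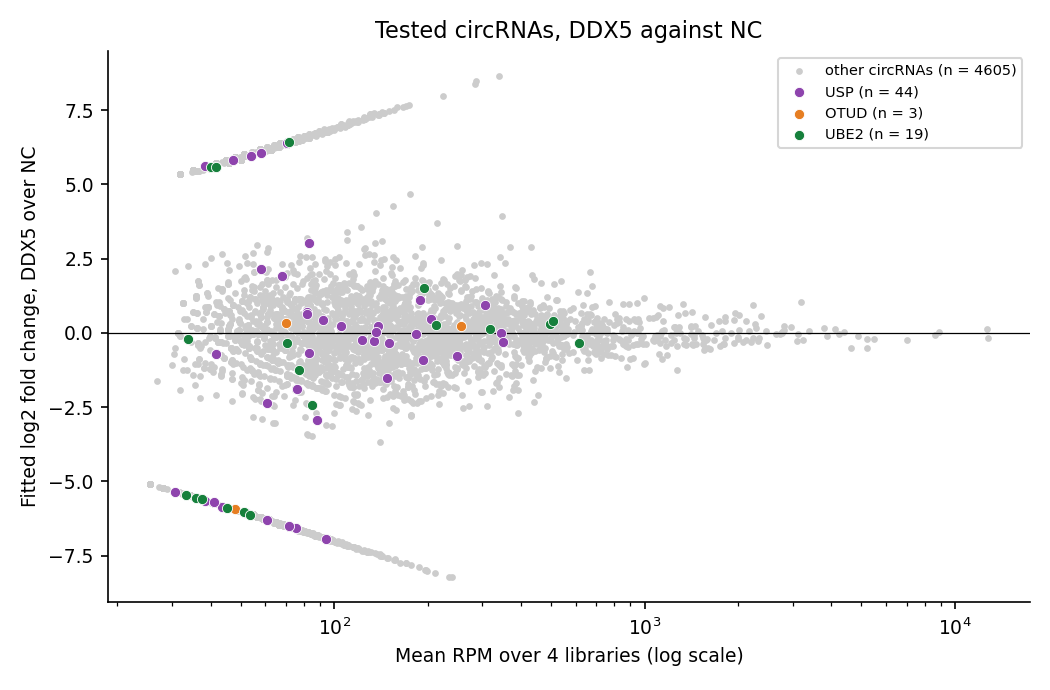
Fitted log2 fold change (DDX5 over NC, y axis) against mean RPM over the 4 libraries (x axis, log scale) for every tested circRNA, with the 66 members colored by prefix. Members spread through the cloud of all circRNAs, and those on the upper and lower bands have 0 reads in 1 group, where the fitted value depends on the prior count.

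Some member circRNAs were read in 1 group only. Among the 66 tested, 18 (27.3%) had no reads in the DDX5 libraries, beside 25.0% over all tested circRNAs, and 9 (13.6%) had none in the NC libraries, beside 14.1%. Most came from a lone library, and 7 of the 18 and 4 of the 9 had reads in both libraries of the other group. Folds against a group at 0 are lower bounds that set its reads at 3 over both libraries. They allow for counting error in the group at 0 only and take the reads of the other group as exact. The spread between libraries of a group is not covered. None of these circRNAs passed the edgeR test.

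The clearest case on the NC side was USP8, a deubiquitinase of endosomes that acts on internalized receptors. Its circRNA of exons 4 to 5 had 0 reads in both DDX5 libraries and 8 and 26 reads in the NC libraries, at least 9.18-fold lower in DDX5. The unadjusted p of edgeR's quasi-likelihood test was 0.0644, the smallest of any member circRNA, and the adjusted p was 0.95. USP33 exons 11 to 17 had 15 and 8 reads in NC (at least 6.21-fold lower in DDX5). Exon 16 of USP36, a nucleolar deubiquitinase that acts on MYC, formed a circle alone with 8 and 13 reads in NC (at least 5.67-fold lower). UBE2Z exons 4 to 6 (6 and 13 reads), USP10 exons 5 to 11 (7 and 11) and UBE2Q2 exons 6 to 9 (12 and 4) also had reads in NC alone. USP10 and UBE2Q2 had other circRNAs with reads in both DDX5 libraries.

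On the DDX5 side, UBE2J2 exons 2 to 6 had 12 and 8 reads in DDX5 and 0 in both NC libraries, at least 8.23-fold higher. Its neighbour of exons 4 to 5 was read in all 4 libraries. The circRNA of exons 2 to 6 of USP22, the deubiquitinase of the SAGA transcription complex, had 9 and 10 reads in DDX5 and none in NC (at least 7.82-fold higher). The circRNA of USP22 exons 2 to 5, which shares its first exon, had 24 and 0 reads in DDX5 and 0 and 24 in NC. USP14, a deubiquitinase bound to the proteasome, had 7 and 6 reads in DDX5 and none in NC from exons 7 to 13 (at least 5.35-fold higher). UBE2Q2 exons 3 to 5 had 6 and 5 reads in DDX5 alone (at least 4.53-fold higher). UBE2Q2 has a related transcribed pseudogene, UBE2Q2P1, among the hosts, and how the counting divided reads between such copies is not given in the sources used here.

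**Figure D3:**
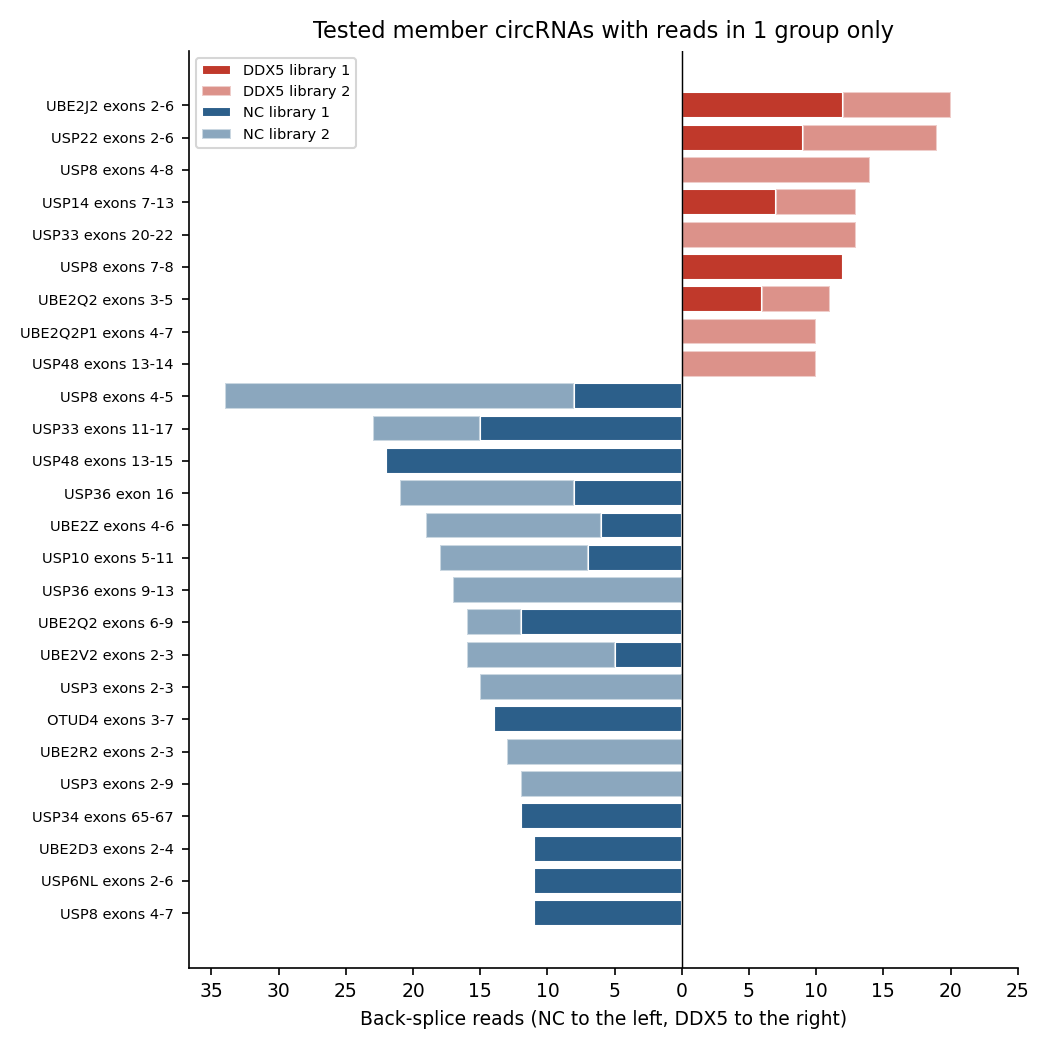
Back-splice reads of 26 tested member circRNAs with reads in 1 group only, NC reads to the left and DDX5 reads to the right of 0. Dark bars are library 1 and light bars library 2 of a group, and the longest bar is that of USP8 exons 4-5 with 34 NC reads.

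Summing all circRNAs of a host gave more reads per feature, and again edgeR called no host. Of 38 hosts with at least 10 reads, 0 passed an adjusted p of 0.05 in edgeR's quasi-likelihood test, beside 0.0% of all hosts in each direction, and 0 passed an unadjusted p of 0.05, beside 1.11% higher and 1.41% lower. DESeq2 gave 0 at the adjusted and 1 at the unadjusted threshold (2.63%), beside 0.037% and 4.88% of all hosts. limma on log2(RPM + 1) gave 0 and 2 (5.26%), beside 0.0% and 8.1%, and limma on log2(RPM + 0.1) called 2 at the adjusted threshold (5.26%), beside 7.44%. The median log2 fold change was -0.42, beside -0.13 over all hosts, with 17 of 38 (44.7%) above 0, beside 45.5%. Both DDX5 libraries lay above both NC libraries in 3 hosts (7.89%, beside 13.2% of all hosts), and below them in 5 (13.2%, beside 15.7%). UBE2D2, USP45 and USPL1 were the 3 above, and USP8, USP13, USP32, USP36 and UBE2V2 the 5 below.

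UBE2G1 was the leading host, with 80 and 55 reads in DDX5 and 72 and 79 in NC, or 967 ± 75.5 and 895 ± 126 RPM (SD, n = 2). UBE2J2 followed with 52 and 53 reads in DDX5 and 41 and 74 in NC, and USP3 with 39 and 45 against 72 and 61. Their log2 fold changes were 0.07 ± 0.47, 0.17 ± 0.55 and -0.42 ± 0.57 (SE), and the groups overlapped in all 3. UBE2D2 had a single circRNA with reads and therefore the reads and RPM given above, with a host log2 fold change of 0.48 ± 0.69 (SE). The groups also overlapped in USP7 (32 and 17 against 42 and 36) and USP25 (29 and 36 against 39 and 10). For USP4 the sum rested on DDX5 library 1, with 43 and 0 reads in DDX5 and 18 and 23 in NC, and its log2 fold change of 0.19 ± 1.57 became -7.24 without that library. For USP25 it became 2.16 without NC library 1.

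Among tested hosts 6 had no reads in DDX5, 15.8% beside 14.5% of all hosts, and none had no reads in NC, beside 8.14%. USP36 was the largest of them, with 8 and 30 reads in NC over its pair of circRNAs (at least 10.3-fold lower in DDX5, unadjusted p 0.052 and adjusted p 1.0 in edgeR's quasi-likelihood test). UBE2V2, an E2 variant that lacks the catalytic cysteine and works as the partner of UBE2N, had 5 and 11 reads in NC (at least 4.32-fold lower). OTUD4, UBE2D3 and UBE2R2 had reads in 1 NC library only, between 11 and 14.

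**Figure D4:**
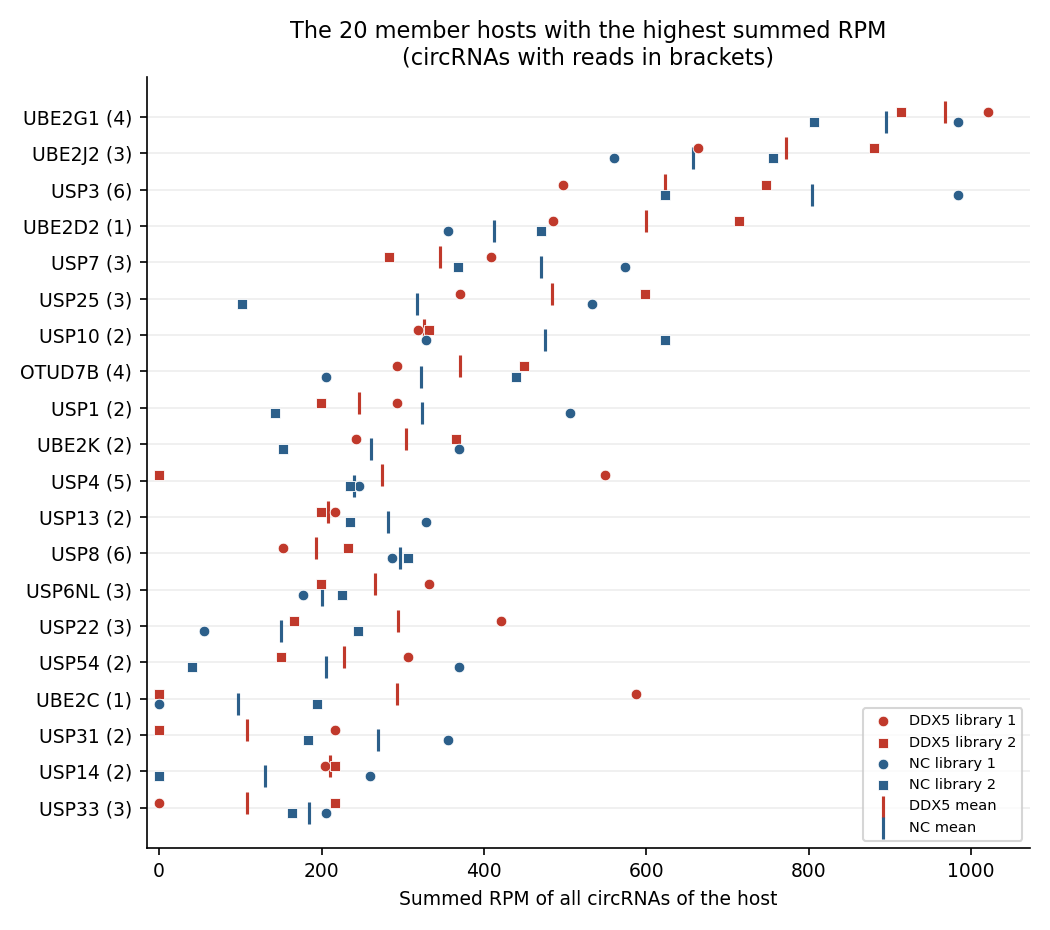
Summed RPM of the circRNAs of the 20 member hosts with the highest levels, with 1 point per library, ticks for group means, and the number of circRNAs with reads in brackets. UBE2G1 lies highest at 806 to 1021 RPM, and in most hosts the red DDX5 points and the blue NC points overlap.

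The members had a mean of 2.15 circRNAs with reads per host, the same as 2.15 for other hosts, but fewer hosts had a lone circRNA (17 of 46, 37.0%, beside 52.4%) and the largest number was 6 beside 23. USP3 and USP8 had 6 each, USP4 5, and UBE2G1, OTUD7B and USP45 4 each. Circles of a host often reused an exon edge, in 45 of 96 placed members (46.9%, beside 45.5%). In UBE2G1, 3 circRNAs ended at exon 5 and began at exon 2, 3 or 4, and held 95.8% of the reads of the host. The circRNA of exons 2 to 5 had 20 and 26 reads in DDX5 and 20 and 30 in NC, that of exons 4 to 5 had 4 and 0 against 18 and 4.

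USP3 showed the same end with several starts, with 3 circRNAs of 80.2% of its reads sharing a donor, while in USP7, USP8 and USP45 3 circRNAs each shared the start exon. All 6 USP3 circRNAs had reads in NC and 3 of these in DDX5. In USP8, no circRNA was read in both groups. Its circRNAs of exons 4 to 8 (14 reads) and 7 to 8 (12 reads) came from 1 DDX5 library each, and the 4 others from NC. The sums for the host were 12 and 14 reads in DDX5 and 21 and 30 in NC, with a log2 fold change of -0.68 ± 1.18 (SE). USP45, which acts on the repair nuclease subunit ERCC1, likewise had 2 circRNAs in each group and none in both, each read in 1 library at 5 to 9 reads. Among 27 member hosts with at least 2 circRNAs and reads in both groups, 7 (25.9%) had no circRNA seen in both groups, beside 16.9% of such hosts elsewhere. In all, 40 member circRNAs were seen in both groups, 65.6% of those seen in DDX5 and 51.3% of those seen in NC, beside 60.0% and 51.3% of the others.

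**Figure D5:**
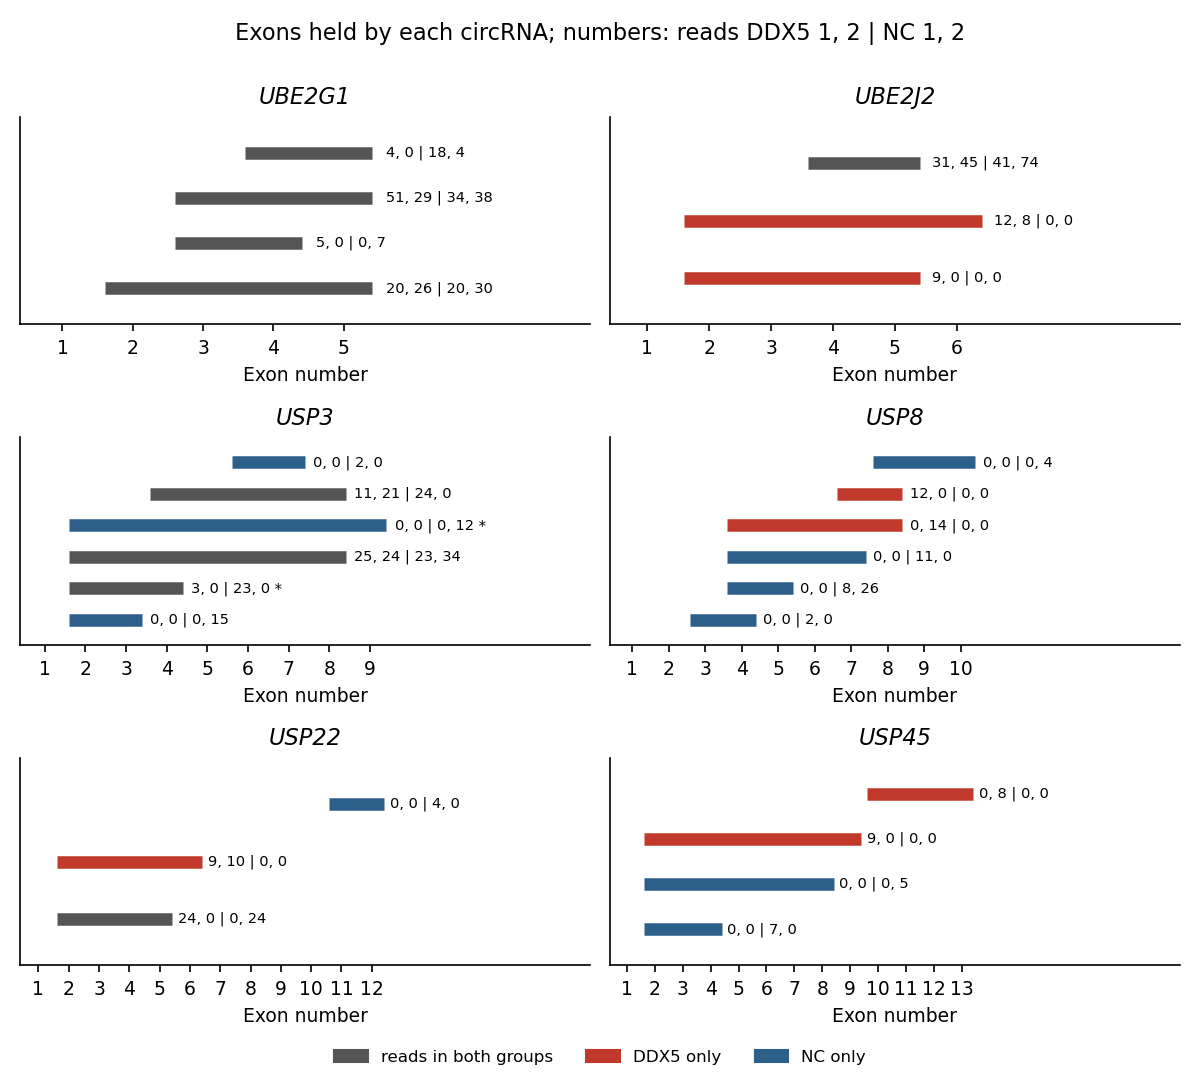
Exons held by each circRNA with reads in 6 hosts, with exon number on the x axis and 1 bar per circRNA. Numbers beside each bar are reads in DDX5 libraries 1 and 2 and NC libraries 1 and 2. Grey bars have reads in both groups, red in DDX5 only and blue in NC only, and an asterisk marks exon numbers of another transcript. The bars of UBE2G1 mostly end at exon 5, and USP8 has no grey bar.

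Most member circles with reads held several exons and lay within the coding region. Of 96 with reads that were placed, 34 (35.4%) began at exon 2, beside 24.9% of other circRNAs, none began at exon 1, and 2 held a single exon (2.08%, beside 6.91%). The median spliced length was 346 nt, from 185 to 1102 nt, beside 382.5 nt, and the median genomic span was 6749 nt beside 4617.5 nt. The matched transcript had a coding region in 94 cases, and 76 circles (80.9%, beside 87.2%) lay within it. The end of the coding region was inside 9 circles (9.57%, beside 0.921%). Of these, 3 were the UBE2G1 circles that end at exon 5, each with 40 nt outside the coding region, and 4 had been matched to a transcript annotated as a target of nonsense-mediated decay, whose coding region ends early. The annotated start codon was inside 13 circles (13.8%, beside 11.6%). In the UBE2J2 circRNAs of exons 2 to 6 (495 nt) and 2 to 5 (414 nt) the circle opens with that codon, its length is a multiple of 3, and the frame runs around the circle with no stop codon. In the other 11 the frame met a stop codon after 47 to 311 codons. Whether any is translated was not measured.

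The 5 hosts that share the name but not the role were USPL1, USP6NL, USP39, UBE2Q2P1 and UBE2F-SCLY. They summed to 574 and 449 RPM in DDX5 and 301 and 327 RPM in NC, or 511 ± 88.7 and 314 ± 18.4 RPM (SD, n = 2). Both DDX5 libraries lay above both NC libraries in this sum. UBE2Q2P1 had 0 and 10 reads in DDX5 and 7 and 0 in NC. These sums were not tested. USPL1, a SUMO isopeptidase, had 17 and 5 reads in DDX5 and 0 and 3 in NC on a circle of exon 4 alone. Both DDX5 libraries lay above both NC libraries, with a log2 fold change of 3.04 ± 3.6 (SE). USP6NL, a GTPase-activating protein of Rab proteins, had sums of 26 and 12 reads in DDX5 and 13 and 22 in NC and ranked 14 among member hosts by mean RPM. USP39, a splicing factor without protease activity, had 2 reads in 1 library of each group. UBE2F, an E2 enzyme that conjugates NEDD8 and is not part of that sum, had 7 and 0 reads in DDX5 and 16 and 0 in NC. UBE2F overlaps the readthrough gene UBE2F-SCLY, which was listed separately with 7 reads in NC library 2, and the counting could have divided reads between them.

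The rest of the ubiquitin system was read from E1 enzymes, other deubiquitinases and isopeptidases, other E2 fold proteins, and ubiquitin precursors and shuttle proteins, 91 genes in all. Of these, 32 were hosts with reads and 26 were tested. None passed an adjusted p of 0.05 in edgeR's quasi-likelihood test, beside 0.0% of all hosts in each direction. None passed an unadjusted p of 0.05 there, beside 1.11% higher and 1.41% lower, and the smallest unadjusted p was 0.298. The log2 fold change was above 0 in 17 of 26, beside 45.5% of all hosts, with a median of 0.19 beside -0.13. DESeq2 also gave 0 at the adjusted threshold, beside 0.037% of all hosts. The largest sum was that of UBAP2, a protein with a ubiquitin-associated domain, with 398 and 274 reads in DDX5 and 364 and 385 in NC. UBA2, a subunit of the SUMO E1 enzyme, had 271 and 238 reads in DDX5 and 237 and 277 in NC, or 3706 ± 351 and 3033 ± 291 RPM (SD, n = 2), with a log2 fold change of 0.24 ± 0.24 (SE). Both DDX5 libraries of UBA2 lay above both NC libraries in RPM. This held for 6 of the 26 tested hosts, beside 13.2% of all hosts. In 1 host they lay below, beside 15.7% of all hosts.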

How the data were processed

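The authors deposited raw back-splice read counts, 1 value per circRNA and library. The deposited RPM values divide these counts by the back-splice total of the library. CIRCexplorer2 and CIRI2 were the circRNA callers named in the paper, and BWA and hg38 appear in the submitters' processing notes. How the output of these callers was merged is not given in the sources used here. Labels and paper differ in the medium (DMEM and RPMI).

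Counts per circRNA and sums per host gene were fitted in edgeR 4.0.16 under R 4.3.3 with TMM factors and glmQLFTest over all features with a total of at least 10 reads, with Benjamini-Hochberg adjustment over all of them (4671 circRNAs, 2703 hosts). The fitting code was also run on simulated counts, with known changes set only in features with more reads than most members had. That run was a check of the code and does not show how well changes in members would be found. As alternatives, the scaling, the filter and the test (DESeq2 1.42.0, limma 3.58.1, the exact test of edgeR) were varied, a replicate block was added, and each library was left out.

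Named were the 12 highest member circRNAs by mean RPM, those in all 4 libraries, the 6 smallest p per direction among circRNAs whose groups do not overlap, the 6 hosts with most circRNAs and the 6 with the highest sums, and hosts of another role. Junctions and other names were picked with their values in view. The values of some members are not reported here. The members and lists were chosen with earlier results of these data known.

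File coordinates do not follow GRCh38, where only 5 of 168 member starts equal an exon start. Each circRNA was therefore matched by span to exon edges in GENCODE 29, and 163 of 168 matched exactly 1 pair. In all 31 hosts with at least 2 placed circRNAs the shift between the files and GRCh38 was constant. Where several transcripts fitted, exon numbers and coding content depend on the transcript matched. Python 3.11.15 with pandas 2.3.3 was used for tables.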

Additional observations from a re-analysis of the deposited data

How the results depend on the processing

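With 2 libraries per group and a median of 15 reads per member circRNA with reads, the standard error exceeded the log2 fold change in every circRNA seen in all 4 libraries, so a missing call does not show that a circRNA was unchanged. At an adjusted p of 0.05, edgeR made no member call under any scaling or filter that was run. DESeq2, run in its default setting on all 4 libraries, made none either. limma on log2(RPM + 0.1) called 10 member circRNAs and 2 hosts, all at 0 reads in both libraries of a group, where the small pseudocount sets the size of the difference. At an unadjusted p of 0.05, both limma fits gave 4 circRNAs higher and 7 lower and 2 hosts lower. DESeq2 gave 1 circRNA lower (USP8, unadjusted p 0.0349) and 1 host lower (USP36, unadjusted p 0.0208). With a library left out, the spread of its lone partner comes from the other group, so only log2 fold changes are given. The features were picked with these fits in view. Without NC library 1, USP25 exons 2 to 3 moved from 0.96 to 7.9. Without NC library 2, the UBE2C circRNA moved from 1.51 to 7.43 and the SENP6 sum from 0.87 to 2.24. Without DDX5 library 1, the sums moved from 0.19 to -7.24 for USP4, from -1.29 to -7.4 for USP31 and from -1.19 to -7.45 for FAM188A.

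Of 260 alternative values of the 20 log2 fold changes of the circRNAs in all 4 libraries and of the hosts named by sum or circle number, 232 kept their direction and 28 reversed, 11 of these without a library left out. USP13 turned from -0.028 to 0.0288 with DESeq2's size factors, 0.0781 with totals only, 0.0295 with DESeq2, and 0.0906 and 0.0911 with limma. USP54 turned from -0.28 to 0.29 and 0.30 with limma and to 0.16 with the replicate block. The USP4 sum turned from 0.19 to -3.36 and -5.02 with limma and to -1.55 with the replicate block. Without each library in turn, the circRNAs that reversed ranged from -0.775 to 0.0297 for UBE2J2 exons 4 to 5, from -0.791 to 0.43 for USP10, from -0.105 to 0.13 for USP3, from -0.223 to 0.422 for UBE2G1 exons 2 to 5, from -0.172 to 0.153 for USP13 and from -1.02 to 1.43 for USP54. The sums that reversed ranged from -0.0605 to 0.208 for UBE2G1, from -0.0308 to 0.416 for UBE2J2, from -0.188 to 2.16 for USP25, from -7.24 to 1.17 for USP4 and from -0.307 to 0.803 for OTUD7B. The cause of these reversals was not tested. Libraries of the same number did not deviate together (correlation 0.00934), so the numbers were not taken as pairs, and the replicate block gave no member call. Totals alone moved the median of all circRNAs by 0.10.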

Other observations

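The 69 member circRNAs listed with 0 reads in every library included 6 each from USP3 and USP34 and 4 from USP48. Reads were found for 53.1% of listed USP, 77.4% of UBE2 and 85.7% of OTUD circRNAs. Over all members the share was 58.9%, beside 64.6% of all other circRNAs. USP30, USP46, USP47 and USP9X were listed through such circRNAs alone.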
